A study of Sus scrofa with 12 samples.

Results

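Interferon-stimulated genes were followed in the jejunum, the middle stretch of the small intestine, of piglets before and after weaning. The set was defined by gene name with no threshold on a measured value, and it was chosen with earlier results of these data known. Its 9 names were ISG15, MX1, MX2, IFIT1, IFIT2, IFIT3, RSAD2, OAS1 and IRF7. Of these 9 names 8 were found in the deposited expression data, each as 1 locus, and ISG15 was not analysed here. The table holds 41264 loci, of which 23614 carry a gene name, with 17049 different names. Values are in FPKM, a fragment count divided by exon length and by the mapped fragments of its library, so that levels can be compared between genes of unequal length.

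Cells that detect viral nucleic acid, or that receive interferon from a neighbour, switch on a shared antiviral programme. Interferon binds its receptor, the kinases JAK1 and TYK2 are activated, and a complex that holds STAT2 and IRF9 binds a short response element in the promoters of these genes. In the small intestine type I interferons act on many cell types, while the lambda interferons act mainly on the epithelium, and microbial signals are known to keep the programme at a low tone.

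Jejunum RNA came from 12 piglets in 4 groups of 3, all sequenced as poly(A) RNA. W_Con and PW_Con piglets were 21 and 28 days old and were nursed by sows on a corn-soybean meal diet. W_Res and PW_Res piglets had the same ages, and their sows received that diet with 300 mg/kg resveratrol, a plant polyphenol, from 20 days after breeding through lactation. The 21-day piglets (W) were taken on the day of weaning and are called sucking piglets here. The 28-day piglets (PW) had spent 7 days without the sow and are called weaned piglets, so that weaning and 7 days of growth cannot be told apart. The records describe sows bred with pooled Landrace semen, litters cross-fostered within a diet to 9 to 12 piglets, and piglets that stayed in their pens, whereas the paper describes Yorkshire × Duroc litters moved to a nursing room. The resveratrol was given to the sow and not to the piglet.

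Over 12886 gene names, Pearson's r between replicates was 0.881 to 0.961, where genes are not independent replicates. Libraries 2 and 3 of W_Res stood apart from the rest. Their median FPKM over all loci was 1.12 and 0.836 against 0.238 to 0.479 in the other 10 libraries, and loci without a gene name held 8.47% and 8.02% of their summed FPKM against 5.48% to 6.81%. Of 4 smooth muscle markers measured (ACTG2, DES, ACTA2 and CNN1), none was at 0. Their summed level was 1163, 2330 and 471 FPKM in W_Res libraries 1, 2 and 3, against 87.7 to 459 FPKM in the other groups. This sum did not separate libraries 2 and 3 from library 1. FABP6 and SLC10A2, bile acid genes that mark the distal small intestine, summed to 7.45 to 24176 FPKM across the libraries labelled jejunum. The 5 villus enterocyte markers summed to 2754 to 9322 FPKM, with none at 0. The fold changes of the 8 genes that rest on W_Res are also given without its libraries 2 and 3. This check was added once the values were known, and the lone W_Res library was assumed to vary like the other groups. That library, W_Res 1, was the highest of its group for 7 of the 8 genes. For these genes the check thus lowers the weaning effect and raises the diet effect at 21 days, whatever the quality of the libraries.

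OAS1, an enzyme that makes the 2′-5′ oligoadenylates which activate RNase L, had the highest level of the 8 genes, with a mean of 424 FPKM over the 12 libraries. MX1, a dynamin-like GTPase that traps viral ribonucleoproteins, followed with 173 FPKM, and exceeded IRF7 (96.8 FPKM) in 11 of 12 libraries. IRF7, the transcription factor that amplifies interferon production, and IFIT3 (86.3 FPKM) were not ordered beyond their spread, since IRF7 was higher in 7 of 12 libraries with a mean log2 difference of 0.20 ± 0.59 (SD over 12 libraries). OAS1 exceeded MX1 in 10 of 12 libraries, and IFIT3 exceeded IFIT2 (39.4 FPKM) in 11 of 12. Below these stood IFIT1 with 30.0, MX2 with 26.9 and RSAD2 with 25.1 FPKM. In this lower part of the order neighbours were higher in only 6 or 7 of 12 libraries, so that no order between them could be read. Over all 12 libraries the means lay at percentiles 89.4 (RSAD2) to 99.4 (OAS1) of all gene names, while IFIT1 in W_Con 2, W_Con 3 and PW_Con 3 and IFIT2 and RSAD2 in W_Res 2 were below the median gene name of their library.

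**Figure D1:**
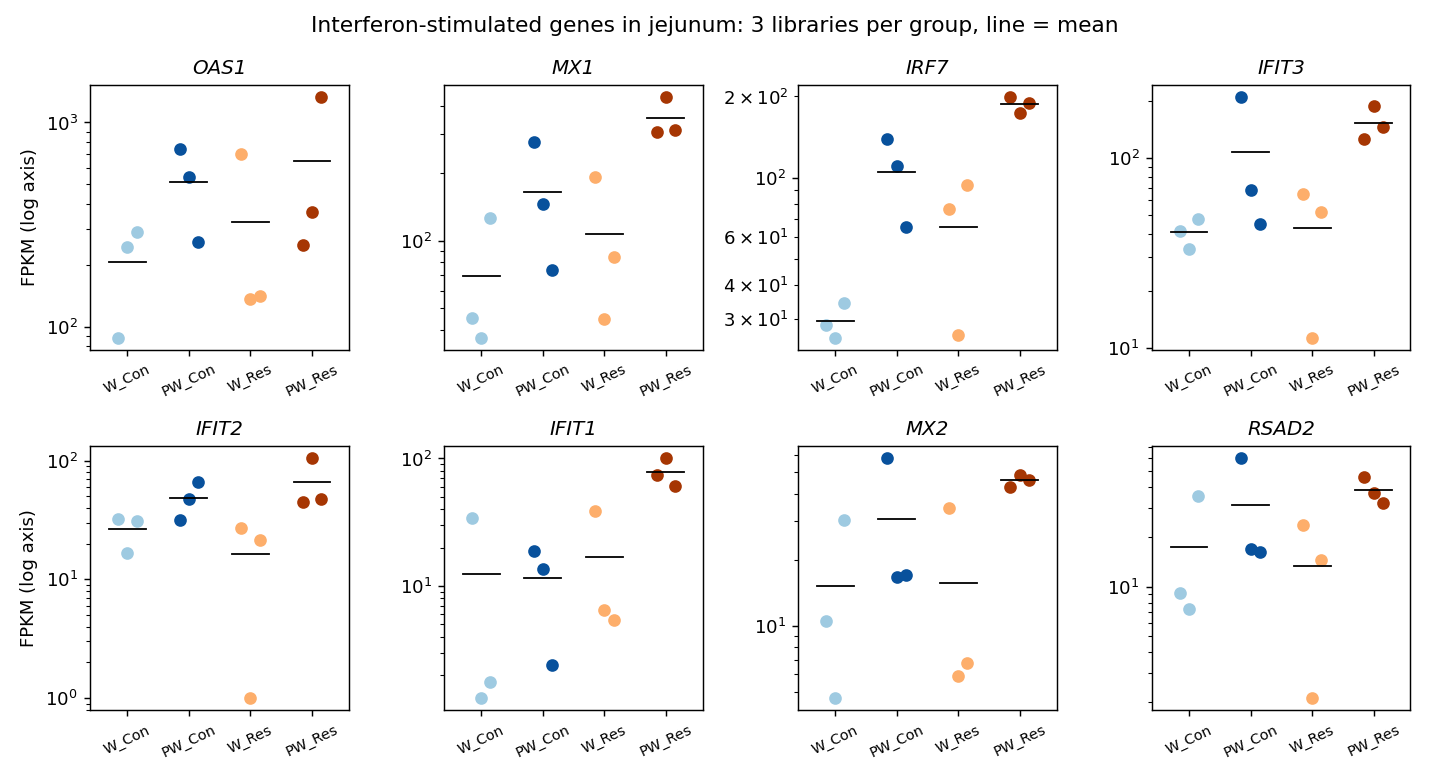
FPKM (log axis) of the 8 interferon-stimulated genes in the 12 libraries, with each point 1 piglet and each line the mean of 3. In every panel except that of OAS1 the 3 PW_Res points lie above the 3 W_Res points, while W_Con and PW_Con points overlap in every panel except that of IRF7.

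The first comparison asked how expression differed between sucking and weaned piglets. All 8 genes were higher in weaned piglets when the effect was averaged over both maternal diets. The fitted rises ranged from 1.20 (OAS1) to 1.72 (IRF7) on the log2(FPKM + 1) scale, which is 2.29-fold to 3.29-fold. At the study's standard, an unadjusted P under 0.05 with a log2 fold change beyond 1 in either direction, 8 of 8 rose, where 0.737% of the 12886 gene names tested were higher at that standard. The median over the 8 genes was 1.60, against a median of -0.10 over all gene names. None of the 8 had a Benjamini-Hochberg adjusted p under 0.05 in limma, the linear model used throughout, whereas 10 gene names (0.0776%) did. The call held for MX1, IFIT3 and IRF7 under each alternative that was run. It held for MX2 and IFIT2 under each except the one without W_Res libraries 2 and 3. RSAD2 lost it in 5 of the 12 fits that left out 1 library, OAS1 in 8 and IFIT1 in 9. With no filter on low values IFIT1 and OAS1 lost it too, and OAS1 also lost it with a mean of at least 5 FPKM, quantile normalization, a replicate block and the highest locus per name. The count of genes past the standard fell to 5 without W_Con 2, without PW_Con 1 or without W_Res 2, and it was 3 without both W_Res 2 and W_Res 3. In that last fit the averaged effect was 1.51 for IRF7, 1.15 for IFIT3 and 1.05 for MX1, which passed, and 0.99 for IFIT2, 0.84 for IFIT1, 0.77 for RSAD2, 0.74 for MX2 and 0.42 for OAS1, which did not. Of 5 villus enterocyte markers FABP2 fell past the standard in the same averaged comparison, by 1.31, where 0.683% of gene names were lower at it. The part of FABP2 in the result was not tested. In bulk tissue, fewer cells of a type and less RNA per cell cannot be told apart.

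In the litters of control sows 8 of 8 genes had a positive log2 fold change, although the mean FPKM of IFIT1 was 12.5 in W_Con and 11.6 in PW_Con, and 2 of 8 (IRF7 and OAS1) rose past the standard, where 1.5% of 12611 gene names were higher at it. Only IRF7 had groups that did not overlap, and 12.6% of gene names were higher with no overlap. The median over the 8 was 1.08, beside -0.02 over all. This count depended on single sucking and weaned piglets: it was 5 without W_Con 3, 4 without PW_Con 3 and 1 without PW_Con 2. Of 5 B cell markers 5 had positive values in these litters, with a median of 1.04, and 1 of them, CD79B (2.05), passed the standard. Their summed level was 154 to 179 FPKM in W_Con and 202 to 292 FPKM in PW_Con, with none at 0. The distal small intestine markers summed to 13.3, 1254 and 8109 FPKM in W_Con and 6583 to 9680 FPKM in PW_Con. FABP2, a fatty acid carrier of villus enterocytes, fell by 2.20 past the standard, the only 1 of 5 villus markers to do so. The part of these markers in the result was not tested. In the litters of resveratrol-fed sows 7 of 8 rose past the standard, all but OAS1, where 0.991% of 13013 gene names were higher at it. The same 7 had no overlap between sucking and weaned piglets, against 3.93% of gene names that were higher without overlap. The median over the 8 was 1.92, beside -0.16 over all. Without W_Res libraries 2 and 3, 1 of 8 remained past the standard, which was IRF7. The 4 smooth muscle markers moved the opposite way in these litters, with log2 fold changes of -1.25 to -2.76 that all passed the standard (3.76% of gene names were lower at it), and their part in the result was not tested. The adjusted p of the 7 genes was 0.311 to 0.348 in limma.

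**Figure D2:**
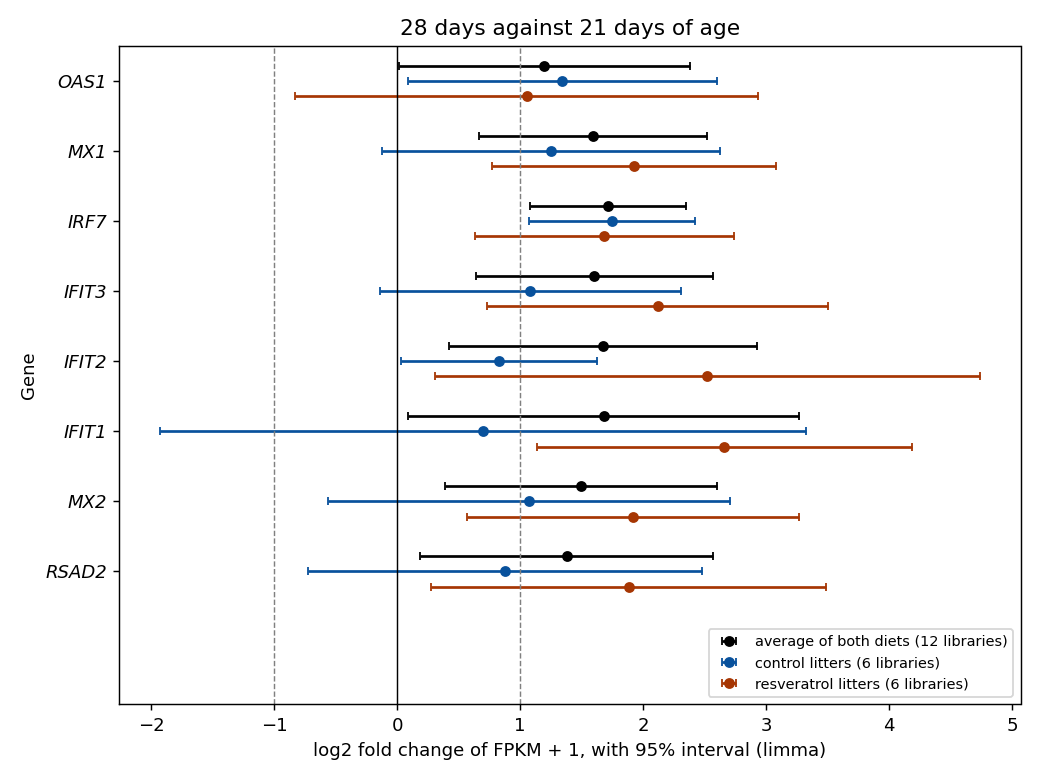
Log2 fold change of FPKM + 1 between 28 and 21 days with its 95% interval from limma, for the average of both maternal diets (black), control litters (blue) and resveratrol litters (orange). Every point lies to the right of 0, and the intervals of the 2 litter types overlap for each gene.

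IRF7 is the member nearest to the top of the pathway, since its product drives further interferon transcription. Its FPKM was 28.5, 25.5 and 34.2 in the W_Con libraries and 139, 111 and 65.5 in the PW_Con libraries. In the resveratrol litters it was 76.7, 26.1 and 93.6 in W_Res and 199, 173 and 189 in PW_Res. Weaned piglets were above sucking piglets of the same maternal diet without exception, and the 3 PW_Res libraries differed by only 1.15-fold between the lowest and the highest. The weaning effect was 1.75 (SE 0.29, adjusted p = 0.117, limma) in control litters. It was 1.69 (SE 0.45, adjusted p = 0.311, limma) in resveratrol litters, and 1.27 without W_Res libraries 2 and 3. Averaged over diets it was 1.72 (SE 0.29, adjusted p = 0.0543, limma), which ranked 20 among 12886 gene names by unadjusted P. The adjusted p of this averaged effect was 0.0333 to 0.142 over the alternatives. It was 0.0333 with median-of-ratios rescaling and 0.0984 without W_Res libraries 2 and 3.

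MX1 and MX2 are neighbouring genes in the pig annotation and encode dynamin-like GTPases that block entry or early replication of viruses. MX1 had 45.2, 37.0 and 126 FPKM in W_Con and 276, 145 and 73.8 FPKM in PW_Con. In W_Res it had 192, 45.0 and 84.8 FPKM, and in PW_Res 305, 437 and 312 FPKM. W_Con 3 was above PW_Con 3, so that the control groups overlapped, while all 3 PW_Res libraries were above every other library of the series. The weaning effect on MX1 was 1.25 (SE 0.59, adjusted p = 0.315, limma) in control and 1.93 (SE 0.50, adjusted p = 0.311) in resveratrol litters, and 1.59 (SE 0.42, adjusted p = 0.115) averaged. In control litters MX1 passed the standard without W_Con 3 (1.79) or without PW_Con 3 (1.73). In resveratrol litters it was 0.85 without W_Res libraries 2 and 3.

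MX2 had 10.5, 4.66 and 30.3 FPKM in W_Con and 58.3, 16.7 and 17.1 FPKM in PW_Con. Its values were 34.3, 5.91 and 6.78 FPKM in W_Res and 42.7, 48.7 and 46.3 FPKM in PW_Res. A single sucking piglet of each diet (W_Con 3 and W_Res 1) stood well above its 2 group mates, and the PW_Res libraries were nearly equal, with an SD of 0.09 on the log2 scale. The weaning effect on MX2 was 1.07 (SE 0.70, adjusted p = 0.470, limma) in control litters, short of the standard, which it passed the standard without W_Con 3 (1.72). It rose by 1.92 (SE 0.58, adjusted p = 0.311) in resveratrol litters, and this was 0.41 without W_Res libraries 2 and 3. The averaged effect was 1.49 (SE 0.51, adjusted p = 0.169).

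The IFIT genes lie side by side in the order IFIT2, IFIT3, IFIT1 and encode tetratricopeptide proteins that bind foreign RNA. IFIT1 recognises RNA that lacks host cap methylation. It had 34.3, 1.32 and 1.78 FPKM in W_Con and 18.9, 13.5 and 2.39 FPKM in PW_Con. It had 38.5, 6.47 and 5.40 FPKM in W_Res and 74.9, 101 and 60.7 FPKM in PW_Res. The first library of W_Con exceeded all PW_Con libraries, while each PW_Res library was above each library of the other groups. IFIT1 differed by 0.70 (SE 1.12, adjusted p = 0.798, limma) in control litters, and passed the standard there without W_Con 1 (1.97). It rose by 2.66 (SE 0.66, adjusted p = 0.311) in resveratrol litters, the largest weaning effect among the 8 genes with all libraries. The value was 0.99 without W_Res libraries 2 and 3, where IRF7 (1.27), IFIT3 (1.21) and IFIT2 (1.15) were larger. Averaged over diets the rise was 1.68 (SE 0.73, adjusted p = 0.242).

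IFIT2, which promotes apoptosis and restricts neurotropic viruses, had 32.4, 16.8 and 30.9 FPKM in W_Con and 31.6, 47.4 and 65.9 FPKM in PW_Con. It had 27.0, 0.995 and 21.4 FPKM in W_Res and 44.8, 106 and 47.4 FPKM in PW_Res. W_Res 2 was far below the other libraries of the series, and its group spanned a 27.1-fold range. Weaned and sucking piglets overlapped in control litters only. The weaning effect on IFIT2 was 0.83 (SE 0.34, adjusted p = 0.268, limma) in control litters, short of the fold in the standard though its unadjusted P was under 0.05. It passed the standard there without PW_Con 1 (1.09). In resveratrol litters it was 2.52 (SE 0.95, adjusted p = 0.348), and the call was lost without PW_Res 2 (2.13) and without W_Res libraries 2 and 3 (1.15). The averaged rise of IFIT2 was 1.67 (SE 0.57, adjusted p = 0.171).

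IFIT3, which stabilises IFIT1 on RNA, had 41.2, 33.1 and 47.8 FPKM in W_Con and 211, 67.9 and 44.9 FPKM in PW_Con. In W_Res it had 64.8, 11.3 and 52.2 FPKM and in PW_Res 126, 188 and 147 FPKM. PW_Con 3 lay within the W_Con range, whereas each PW_Res library was above each W_Res library. IFIT3 differed by 1.08 (SE 0.52, adjusted p = 0.328, limma) in control litters and passed the standard there without PW_Con 3 (1.55). The rise was 2.12 (SE 0.60, adjusted p = 0.311) in resveratrol litters, 1.21 without W_Res libraries 2 and 3, and 1.60 (SE 0.44, adjusted p = 0.123) averaged over diets.

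RSAD2 encodes viperin, a radical SAM enzyme that makes a chain-terminating nucleotide. Its values were 9.16, 7.33 and 35.5 FPKM in W_Con and 60.5, 17.0 and 16.2 FPKM in PW_Con. They were 23.5, 2.10 and 14.5 FPKM in W_Res and 46.3, 36.8 and 32.0 FPKM in PW_Res. As for MX1 and MX2, W_Con 3 was the high sucking piglet and PW_Con 1 the high weaned piglet among control litters. The weaning effect was 0.88 (SE 0.68, adjusted p = 0.552, limma) in control litters, where RSAD2 passed the standard without W_Con 3 (1.54). It was 1.88 (SE 0.69, adjusted p = 0.344) in resveratrol litters, where the call was lost without W_Res 2 (1.00), PW_Res 1 (1.74) or PW_Res 2 (1.90), and the value was 0.67 without W_Res libraries 2 and 3. The averaged rise was 1.38 (SE 0.54, adjusted p = 0.219), a call that was lost without W_Con 1, W_Con 2, PW_Con 1, W_Res 2 or PW_Res 1, with values of 0.94 to 1.31.

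OAS1 had 88.2, 246 and 290 FPKM in W_Con and 738, 540 and 260 FPKM in PW_Con. It had 702, 136 and 141 FPKM in W_Res and 250, 363 and 1334 FPKM in PW_Res. Sucking and weaned piglets overlapped in both litter types, and PW_Res 3 held the highest level of any member in any library. OAS1 and IRF7 were the members with the larger point estimate in control litters, where OAS1 rose by 1.34 (SE 0.54, adjusted p = 0.259, limma). That call was lost without W_Con 1 (0.81), PW_Con 1 (1.02) or PW_Con 2 (1.24), and also with no filter, median-of-ratios rescaling, a replicate block or all 12 libraries in the fit. In resveratrol litters it differed by 1.05 (SE 0.81, adjusted p = 0.591), passed the standard without W_Res 1 (1.83), and was -0.50 without W_Res libraries 2 and 3. Its averaged rise of 1.20 (SE 0.54, adjusted p = 0.259) was 0.84 to 1.59 with 1 library left out.

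**Figure D3:**
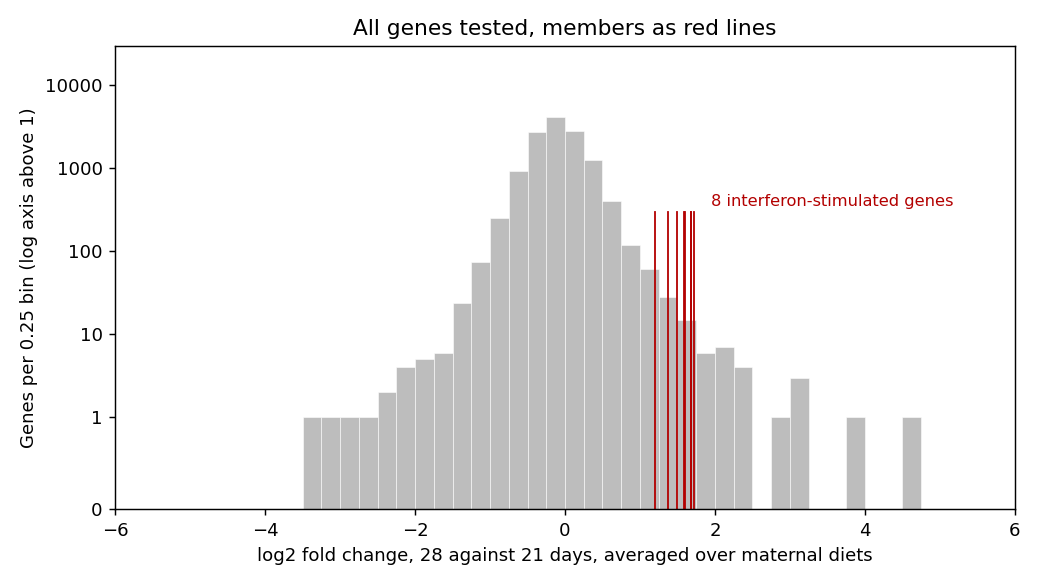
Number of gene names per 0.25 of log2 fold change between 28 and 21 days, averaged over maternal diets (grey bars, log axis above 1), with the 8 interferon-stimulated genes as red lines. The lines lie between 1.20 and 1.72 in the right tail, while the median of all gene names is -0.10.

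Whether the weaning effect differed between the litter types was tested as a difference of the 2 effects, resveratrol minus control, over all 12 libraries. None of the 8 genes passed the standard in limma, where 7.76% of 12886 gene names passed it in either direction. None had an unadjusted P under 0.05, against 13.7% of gene names. The estimate was 1.96 for IFIT1 (SE 1.45, 95% interval -1.22 to 5.14) and 1.69 for IFIT2 (SE 1.14, -0.80 to 4.19). For IRF7 it was -0.06 (SE 0.58, -1.33 to 1.21), and for OAS1 it was -0.29 (SE 1.08, -2.66 to 2.08). The intervals of 6 of the 8 genes reach beyond 1 in both directions, so that 7 calls in resveratrol litters and 2 in control litters do not show unequal effects. Without W_Res libraries 2 and 3 the difference was 0.28 for IFIT1, 0.32 for IFIT2, -0.47 for IRF7 and -1.85 for OAS1. In that fit it was -0.41 for MX1, -0.66 for MX2 and -0.21 for RSAD2, against 0.67, 0.85 and 1.01 with all libraries. For IFIT3 it was 0.13, against 1.04 with all libraries.

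The second comparison asked how the genes differed between the litters of resveratrol-fed and control sows. In weaned piglets all 8 point estimates were positive, and 2 of 8, IFIT1 and MX1, rose past the standard, where 0.856% of 12380 gene names were higher at it. IFIT1, MX1 and IRF7 did not overlap between PW_Con and PW_Res, and 5.44% of gene names were higher without overlap. IFIT1 differed most, with 79.0 ± 20.7 FPKM in PW_Res against 11.6 ± 8.41 FPKM in PW_Con (mean ± SD of 3 libraries). Its log2 fold change was 2.98 (SE 0.62, adjusted p = 0.371, limma), and it kept the call in each fit that left out 1 library. MX1 had 351 ± 74.1 against 165 ± 103 FPKM, a log2 fold change of 1.26 (SE 0.46, adjusted p = 0.427), which lost the call without PW_Con 2 (1.27), PW_Con 3 (0.79) or PW_Res 2 (1.10) and with all 12 libraries in the fit (1.26). IRF7 had 187 ± 13.1 against 105 ± 37.1 FPKM, a log2 fold change of 0.89 (SE 0.29, adjusted p = 0.404) with an unadjusted P under 0.05 that was short of the fold in the standard.

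The other 5 genes differed by 0.07 (OAS1) to 0.81 (MX2) in weaned piglets, and none had an unadjusted P under 0.05 in limma. The count turned on PW_Con 1, the highest PW_Con library for 7 of the 8 genes and the lowest for IFIT2. Without it 6 of 8 passed the standard, with IRF7 at 1.12, IFIT3 at 1.44, MX2 at 1.39 and RSAD2 at 1.14 joining IFIT1 and MX1, while IFIT2 (0.12) and OAS1 (0.40) did not pass. The count was 1 without PW_Con 2, PW_Con 3 or PW_Res 2. The T cell markers CD3D, CD3E, CD3G, CD2, CD8A and CD4 summed to 26.4 to 76.1 FPKM in PW_Res and 65.2 to 118 FPKM in PW_Con, with none at 0. The distal small intestine markers FABP6 and SLC10A2 summed to 7.45, 8.39 and 24176 FPKM in PW_Res and 6583 to 9680 FPKM in PW_Con, with log2 fold changes of -6.83 and -2.23 that did not pass the standard. Of 5 B cell markers 5 had negative values, with a median of -1.06 and none past the standard, and TOP2A, a gene of dividing cells, fell by 1.11 past it, alone among 4 crypt and cell division markers tested. The part of these markers in the differences was not tested.

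In sucking piglets 0 of 8 genes passed the standard or had an unadjusted P under 0.05 in limma, where 2.99% of 13186 gene names were higher and 1.49% lower at the standard and 13.3% had such a P. The estimates had both signs, 4 positive and 4 negative. IRF7 had 0.95 (SE 0.45, adjusted p = 0.403), and passed the standard without W_Res 2 (1.51). IFIT1 had 1.02 (SE 1.12) over all 6 libraries, and passed the standard without W_Con 1 (2.28) and with a replicate block (1.02). The most negative value was that of IFIT2, -1.31 (SE 0.93, 95% interval -3.46 to 0.85), which was 0.07 without W_Res libraries 2 and 3. In that fit IRF7 was 1.36, which passed the standard, while IFIT1 was 2.69, OAS1 1.92 and MX1 1.67, which did not. MX2 was 1.47, IFIT3 0.67 and RSAD2 0.75, against -0.04, -0.23 and -0.46 with them. With all libraries 4 of 6 T cell genes (CD3D, CD3E, CD3G and CD2) fell past the standard at this age, by 1.23 to 1.97. CD8A had -0.98, short of the standard, and CD4 went the other way, with 0.31. Of 4 smooth muscle genes ACTG2, DES and CNN1 rose past the standard, by 2.70 to 2.80, while ACTA2, with 1.22, did not pass. The part of these markers was not tested.

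Averaged over both ages, 1 of 8 genes passed the standard, where 0.419% of 12886 gene names were higher at it. This was IFIT1, with 2.00 (SE 0.73, adjusted p = 0.341, limma), and the call held without each single library. In the same comparison 4 of 6 T cell genes (CD3D, CD3E, CD3G and CD2) fell past the standard, where 0.52% of gene names were lower. So did 1 of 5 villus genes, ANPEP (-1.07), and 1 of 2 distal small intestine genes, SLC10A2 (-1.76). Of 4 smooth muscle genes CNN1 (1.29) rose past it. The part of these markers was not tested. IRF7 differed by 0.92 (SE 0.29, adjusted p = 0.275), and by 1.04 without PW_Con 1 and 1.20 without W_Res 2, which passed the standard. MX1 differed by 0.93 (SE 0.42, adjusted p = 0.406) and passed it without W_Con 3 (1.19), PW_Con 1 (1.16) or W_Res 2 (1.17). The count was 3 without PW_Con 1, without W_Res 2 and without both W_Res libraries 2 and 3, and it was 2 without W_Con 3. Without both W_Res libraries IFIT1 was 2.84, MX1 1.47 and IRF7 1.13. In that fit MX2 was 1.14, OAS1 1.00, IFIT3 0.74, RSAD2 0.65 and IFIT2 0.23. With all libraries these were 0.39, 0.22, 0.28, 0.04 and -0.46. RSAD2 differed by 0.04, with a 95% interval of -1.15 to 1.23, which leaves room for a change of either sign.

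**Figure D4:**
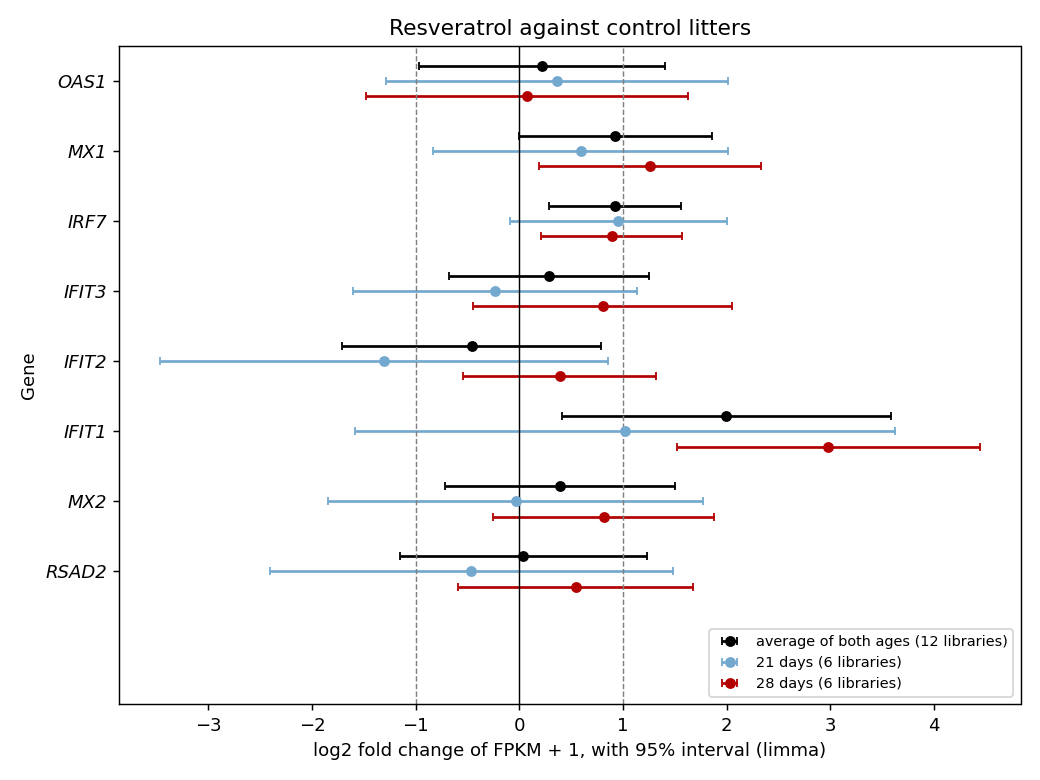
Log2 fold change of FPKM + 1 between litters of resveratrol-fed and control sows with its 95% interval from limma, for the average of both ages (black), 21 days (light blue) and 28 days (red). IFIT1 lies at 2.98 at 28 days, and at 21 days every interval includes 0.

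In each of the 4 groups a single piglet was highest for most of the 8 genes. W_Con 3 was the highest of its group for 6 genes and W_Con 2 the lowest for 7. PW_Con 1 was the highest for 7 genes, and PW_Con 3 the lowest for 6. In W_Res, library 1 was the highest for 7 genes and library 2 the lowest for 7. In PW_Res library 2 was the highest for 5 genes and library 1 the lowest for 5. Spread was smallest in PW_Res for 5 of 8 genes, where the log2 SD was 0.09 for MX2, 0.10 for IRF7, 0.26 for RSAD2, 0.29 for MX1 and 0.37 for IFIT1. By log2 SD the largest spread of a group was that of IFIT1 in W_Con, with 2.20 and a 26.0-fold range, while the 27.1-fold range of IFIT2 in W_Res was the wider.

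Likeness of pattern was measured as the root mean square difference between a gene's values and the mean pattern of the members over the 12 libraries. Both were centred log2 values divided by their SD, so that the difference compares shape and not size of change. MX1 (0.32) and IFIT3 (0.33) were nearest to the mean of the other members, and IFIT2 (0.81), OAS1 (0.83) and IFIT1 (0.87) were farthest. Among 11426 other gene names the median difference was 1.50. The nearest were the unnamed gene ENSSSCG00000012082 (0.15), HSH2D (0.24), an adaptor of lymphocyte signalling, USP18 (0.25), the protease that removes ISG15 from proteins, and HERC5 (0.27), the ligase that attaches it. ENSSSCG00000017754 (0.30), IFIT5 (0.30), the RNA sensor DHX58 (0.33) and SERTAD1 (0.34) followed. USP18 had 23.1 FPKM on average in W_Con, 51.1 in PW_Con, 22.5 in W_Res and 101 in PW_Res. These likenesses are descriptions over libraries that share their depth and composition.

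The other genes of the pathway were taken from lists of 129 names, of which 84 were found in the table and 79 were tested over the 12 libraries. In the comparison of weaned with sucking piglets averaged over diets, 11 of these 79 rose past the standard and 1 fell (5 and 0 without W_Res libraries 2 and 3), where 0.737% of gene names were higher and 0.683% lower. In control litters 3 of 79 rose and 4 fell, where 1.82% of gene names were lower at the standard. In resveratrol litters 13 of 77 rose and none fell, where 0.991% of gene names were higher and 3.76% lower, and 4 of 79 rose without W_Res libraries 2 and 3. The risers in control litters were OASL (2.00), OAS2 (1.54) and DHX58 (1.29), and the genes that fell there were GBP5 (-2.20), JAK1 (-1.46), CD274 (-1.24) and GBP4 (-1.05). DHX58 lost the call without PW_Con 1 (0.99), and GBP4 lost it without W_Con 1 or PW_Con 3 (-0.79 at the nearest to 0). CD274 fell short of the fold in the standard without W_Con 3 or PW_Con 3. It had 8.50, 5.81 and 13.6 FPKM in W_Con and 5.94, 3.50 and 1.28 FPKM in PW_Con. The counts that follow are for weaning averaged over diets. Among 34 other interferon-stimulated genes 7 rose and none fell, and 17 were higher with an unadjusted P under 0.05 (10 without W_Res libraries 2 and 3), as were 6.57% of all gene names. OASL, a relative of OAS1 that enhances RNA sensing, rose most, by 2.88 (SE 0.65, adjusted p = 0.0779, limma). It had 48.9, 24.6 and 50.7 FPKM in W_Con, 232, 181 and 98.2 in PW_Con, 75.2, 2.59 and 44.2 in W_Res and 293, 622 and 166 in PW_Res. The weaned libraries were above the sucking libraries of the same diet throughout. The other 6 were PLAC8, the ubiquitin-conjugating enzyme UBE2L6, OAS2, HERC5, CMPK2, the neighbour of RSAD2, and XAF1, with rises of 1.29 down to 1.02.

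Of 14 nucleic acid sensors and adaptors, 2 rose past the standard after weaning averaged over diets, where 0.737% of gene names were higher at it. DHX58 (LGP2) rose by 1.43 (SE 0.24, adjusted p = 0.0543, limma) and DDX58 (RIG-I) by 1.25 (SE 0.44, adjusted p = 0.180). Of 4 negative regulators USP18 rose, by 1.65 (SE 0.32, adjusted p = 0.0629). Of 4 other interferon regulatory factors none passed the standard after weaning. None of 4 receptors and signal transducers passed it either, among them STAT2 (0.35) and TYK2 (0.08), while JAK1 had -0.81, with an unadjusted P under 0.05. Without W_Res libraries 2 and 3 OASL was 2.02, USP18 1.24 and DHX58 1.08, each still past the standard. Fewer of the other interferon-stimulated genes and of the sensors passed it in that fit, where W_Res rests on 1 library. The median over the 34 other interferon-stimulated genes was then 0.39, beside -0.11 over all gene names.

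Interferon genes themselves were low. IFNK, an interferon of epithelia, had 2.76 to 8.10 FPKM across the libraries. IFNB1 was listed at 0 in 11 of 12 libraries, with 0.137 FPKM in PW_Res 3, and IFNA1 had at most 0.570 FPKM, in PW_Con 2. The table's IL28B, a lambda interferon, was listed at 0 in 2 W_Con libraries and had 1.53 FPKM in the third, and it had 0.995, 1.46 and 0.296 FPKM in PW_Con. It was listed at 0 in 2 W_Res libraries and at 0.102 FPKM in the other, and it had 5.01, 7.40 and 2.89 FPKM in PW_Res. PW_Res was above every other library of the series. Averaged over diets IL28B rose by 1.47 after weaning (SE 0.28, adjusted p = 0.0629, limma), a value on the log2(FPKM + 1) scale that understates the change of so low a gene. It rose by 2.49 (SE 0.31, adjusted p = 0.154) in resveratrol litters, whereas in control litters the groups overlapped and it had 0.44 (SE 0.43, adjusted p = 0.638). Without W_Res libraries 2 and 3 it was 1.42 averaged and 2.40 in resveratrol litters.

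The interferon gamma response uses another receptor and was listed apart. Of 14 of its marker genes tested, none rose and 1 fell past the standard after weaning averaged over diets, which was GBP5, a guanylate-binding protein (-1.43, SE 0.45, adjusted p = 0.154, limma), and it was -0.91 without W_Res libraries 2 and 3. In litters of resveratrol-fed sows 14 of 14 had negative values averaged over ages, where the median was -0.48 against 0.03 over all gene names. Of these, 4 fell past the standard (GBP5, GBP1, CD274 and CXCL9), where 0.52% of gene names were lower at it. GBP5, GBP1 and CD274 kept the call without each single library, which is not claimed for CXCL9. CXCL9 had 11.3, 3.16 and 1.38 FPKM in PW_Con, where library 1 stood apart, and 0.451, 0.231 and 0.321 in PW_Res. At 21 days its groups overlapped, with 2.28, 1.76 and 1.19 FPKM in W_Con and 1.33, 0.717 and 2.48 in W_Res. GBP1 had 379, 291 and 521 FPKM in W_Con, 169, 202 and 210 in PW_Con, 55.1, 74.3 and 163 in W_Res and 90.7, 49.0 and 64.6 in PW_Res. At both ages the resveratrol litters were below the control litters without overlap, and the averaged change was -1.83 (SE 0.26, adjusted p = 0.0365). IFNG, the gene of interferon gamma, had -1.14 (SE 0.20, adjusted p = 0.0572), with 4.27, 2.48 and 2.65 FPKM in W_Con and 0.323, 0.168 and 1.43 FPKM in W_Res. Without W_Res libraries 2 and 3, 13 of 14 were negative and 5 of 14 fell past the standard, with GBP1 at -2.16, and IFNG was -1.26. At 21 days GBP4, another guanylate-binding protein, fell by 1.48 with maternal resveratrol. At 28 days IL28B rose by 1.65 and USP18 by 1.12, a call that USP18 lost without PW_Con 3 or PW_Res 2. Of the other interferon-stimulated genes 28 of 34 had positive values, with none that rose past the standard and DTX3L the 1 that fell. At that age IRF1, a transcription factor induced by interferon gamma, fell by 1.41 and kept the call without each single library, and DTX3L, a ubiquitin ligase, fell by 1.46 and lost it without PW_Con 1, PW_Con 2, PW_Res 1 or PW_Res 3, where 0.953% of gene names were lower at the standard. T cell markers moved with the averaged falls: 4 of 6 (CD3D, CD3E, CD3G and CD2) fell past the standard, the summed level being 105 to 144 FPKM in W_Con, 65.2 to 118 in PW_Con, 30.4 to 57.6 in W_Res and 26.4 to 76.1 in PW_Res. The part of those markers in the difference was not tested.

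**Figure D5:**
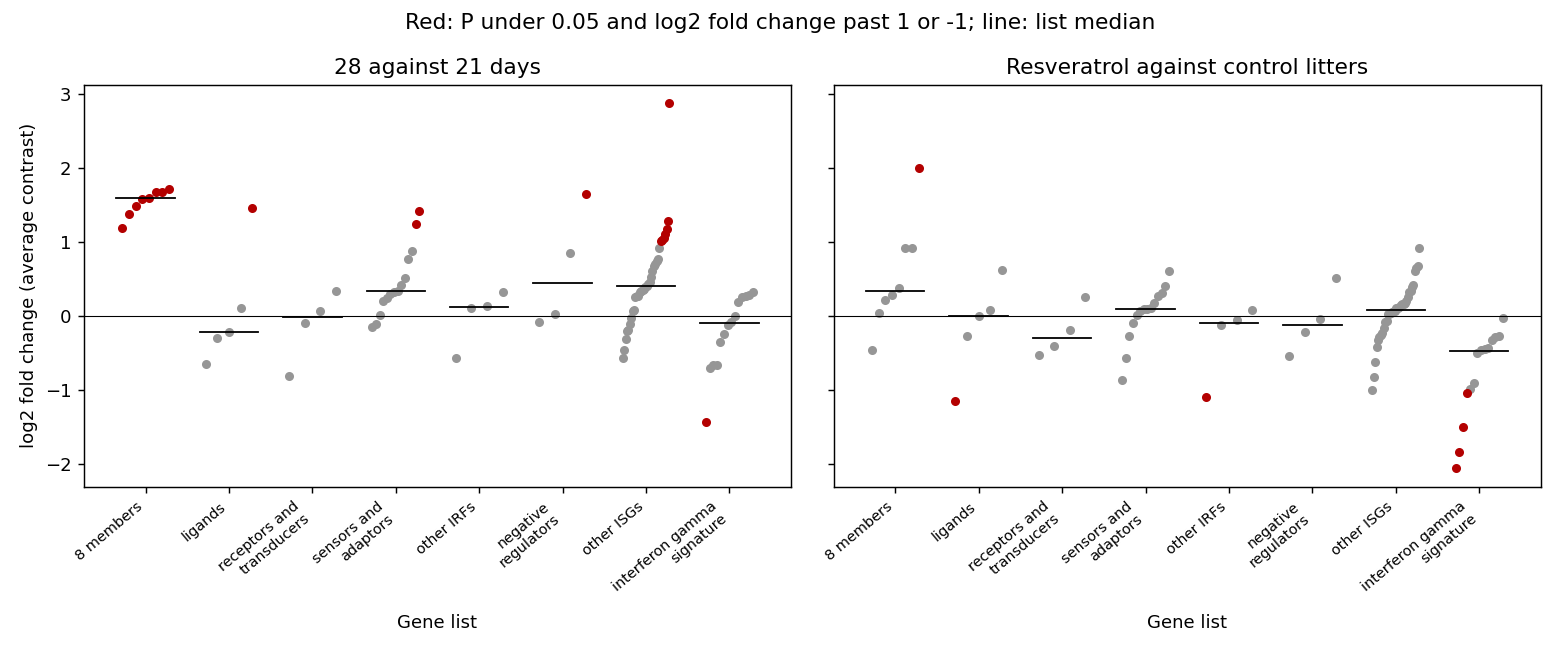
Log2 fold change of each tested gene in the 8 interferon-stimulated genes and 7 wider lists, for 28 against 21 days (left) and resveratrol against control litters (right), each averaged over the other factor. Red points passed the standard and lines are list medians; the 8 members are all red on the left, and the interferon gamma signature lies below 0 on the right.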

How the data were processed

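The authors made poly(A) RNA libraries of jejunum and sequenced paired ends. Per the paper they used TopHat, StringTie and Ballgown. The submitters' processing notes list HISAT2 2.0, StringTie 1.3.0 and Bowtie 0.12.2 with the build Sscrofa10.2, and they also name the mouse build mm8. The deposited table gives FPKM per locus for the 12 samples. No further scaling between libraries is stated. FPKM are not counts, and the deposited table does not give the reads behind a value: of the 33 to 82 loci with low values that could be compared with the first library, at most 12 shared a ratio, so that no read steps could be recovered.

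Loci with the same gene name were summed. The tests were moderated linear models of log2(FPKM + 1), run in limma 3.58.1 under R 4.3.3 with a mean-variance trend. A gene name was tested where it averaged 0.5 FPKM or more over the fitted libraries. Pairwise comparisons used 6 libraries, and the averages and the difference of effects used 12. P-values are two-sided, and Benjamini-Hochberg adjustment covered all gene names tested. The paper's standard was kept. Members, gene lists and tests were chosen with earlier results of these data known. Other pathway genes were named, up to 4 a direction and comparison, by the largest change past the standard, without overlap where 2 groups were compared, and CMPK2, DDX58, HERC5, OAS2, UBE2L6, XAF1 and the receptors, transducers and ligands were named after their values were seen. Ensembl identifiers were matched to symbols for these lists. Neighbouring genes come from RefSeq on Sscrofa11.1, and no coordinates are given since the builds differ. The method was tested on simulated data. One gene was left out of the lists and is not reported here. Alternatives changed 1 choice at a time. They were a replicate block, leaving out each library, rescaling by median-of-ratios, quantile normalization, a pseudocount of 0.1, a minimum average of 5 FPKM or none, the highest locus per name, all 12 libraries for pairwise comparisons, and no trend in eBayes.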

Additional observations from a re-analysis of the deposited data

Results flagged for a closer look

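For none of the 8 interferon-stimulated genes did the difference of the weaning effect between litter types have an unadjusted P under 0.05 in limma. It did for 3 of 79 genes of the wider pathway, a smaller share than the 13.7% of all gene names, given here as resveratrol minus control litters on the log2(FPKM + 1) scale, and none of these had an adjusted p under 0.05. IL28B, a lambda interferon, had a difference of 2.05 (adjusted p = 0.251), and of 1.96 without W_Res libraries 2 and 3. It was 1.60 to 2.34 with 1 library left out. CXCL9, a chemokine induced by interferon gamma, had -1.73 (adjusted p = 0.311) and fell short of the standard without W_Con 3, W_Res 3 or PW_Res 2 and without both W_Res libraries 2 and 3 (-1.68), with -2.26 to -1.07 as the range with 1 library left out. TMEM173 (STING), the adaptor of cytosolic DNA sensing, had -1.20 (adjusted p = 0.251), with 3.01, 3.02 and 2.20 FPKM in W_Con, 6.39, 6.14 and 6.03 FPKM in PW_Con, 3.75, 5.39 and 3.93 FPKM in W_Res and 3.20, 3.67 and 3.50 FPKM in PW_Res. It was -1.29 to -1.07 with 1 library left out and -1.04 without W_Res libraries 2 and 3. Beyond the fits that left out 1 library, groups of 3 libraries were not tested for single outlying libraries.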

How the results depend on the processing

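Each call is limited by 3 libraries per group and by FPKM without counts. Of 1000 alternative values of single members, 880 kept their direction and side of the standard, 55 lost the call, 23 gained it and 42 changed sign. No member changed sign in control litters or in the weaning effect averaged over diets, and none that changed sign was past the standard in the fit as reported. The cause of each change was not tested.

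For weaning in control litters the count of members past the standard, 2 as reported, was 1 with no filter, with median-of-ratios rescaling, with a replicate block and with all 12 libraries in the fit, and 1 to 5 with 1 library left out. For weaning in resveratrol litters it was 7 as reported, 6 with no filter (IFIT2 lost the call), 5 to 8 with 1 library left out and 1 without W_Res libraries 2 and 3. For resveratrol at 21 days it was 0 as reported, 1 with the replicate block, 0 to 1 with 1 library left out and 1 without W_Res libraries 2 and 3. For resveratrol at 28 days it was 2 as reported, 1 with all 12 libraries in the fit and 1 to 6 with 1 library left out. For weaning averaged over diets it was 8 as reported, 6 with no filter, 7 each with a mean of at least 5 FPKM, quantile normalization, the highest locus and the replicate block, 5 to 8 with 1 library left out and 3 without W_Res libraries 2 and 3. For resveratrol averaged over ages it was 1 as reported, 1 to 3 with 1 library left out and 3 without W_Res libraries 2 and 3. The replicate numbers carry no stated pairing, and deviations of same-numbered libraries were correlated at -0.25 to 0.11.

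Sign changes came in resveratrol litters for OAS1 (-0.50 without W_Res libraries 2 and 3). At 21 days in that fit MX2 was 1.47, IFIT2 0.072, IFIT3 0.67 and RSAD2 0.75, and with 1 library left out OAS1 was -0.41 to 0.77, MX2 -0.79 to 0.62, RSAD2 -1.07 to 0.42 and IFIT3 -0.69 to 0.52. At 28 days OAS1 was -0.64 to 0.56 and IFIT2 -0.0047 to 0.64. The difference of effects was 0.14 for IRF7 with median-of-ratios rescaling, -0.41 for MX1, -0.66 for MX2 and -0.21 for RSAD2 without W_Res libraries 2 and 3, and -0.62 to 0.28 for IRF7 and -1.004 to 0.49 for OAS1 with 1 library left out. For resveratrol averaged over ages RSAD2 was -0.037 with quantile normalization, IFIT2 was 0.23 without W_Res libraries 2 and 3, and with 1 library left out RSAD2 was -0.26 to 0.48, OAS1 -0.17 to 0.46 and IFIT2 -0.80 to 0.15.

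Over all gene names, the count past the standard moved with a pseudocount of 0.1 and with a mean of at least 5 FPKM. It went from 418 to 853 and 227 for weaning in control litters, from 618 to 1163 and 245 in resveratrol litters, from 590 to 1008 and 248 for resveratrol at 21 days, from 224 to 488 and 122 at 28 days, from 183 to 591 and 118 for weaning averaged, from 121 to 379 and 76 for resveratrol averaged, and from 1000 to 364 for the difference with the higher mean. Median-of-ratios rescaling moved the median of all gene names from -0.16 to 0.01 in resveratrol litters, from -0.15 to 0.00 for the difference and from -0.10 to -0.01 for weaning averaged. The share of calls that were higher then went from 20.9% to 43.1%, from 23.3% to 42.9% and from 51.9% to 69.4%, and from 66.8% to 56.7% and from 47.3% to 60.8% for resveratrol at 21 and 28 days. For weaning averaged, 205 gene names had an adjusted p under 0.05 with that rescaling and 58 with the higher mean, against 10, and IRF7 was the member among them in both.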
